A study of Mus musculus with 4 samples.

Results

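DNA methylation at 37 genes of leukocytes and Kupffer cells was examined in mouse liver. The 37 genes were chosen by name as markers and regulators of blood cell lineages, out of 34614 annotated protein-coding and lncRNA genes. Earlier results of these data were known when the genes were chosen, so a low p at a member is a description only. A gene region was the mm10 gene body with 5 kb on either side. Its CpGs counted where, with both strands summed, every library had at least 10 reads. All 37 genes were measured, with 1875 CpGs of the 1600691 analysed in the genome, and no CpG belonged to the regions of 2 members.

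The libraries were made by reduced representation bisulfite sequencing (RRBS), in which DNA is cut at short sites, so that CpG-rich stretches are favoured, and unmethylated cytosines are converted before reading. Liver DNA came from C57BL6/N mice aged 6 weeks. There were 2 libraries of the genotype Pnpla7+/+ (WT) and 2 of the genotype Pnpla7-/- (KO). Pnpla7 encodes a lysophospholipase, and the knockout was set against the wild type. Nothing in the labels tells if each library is a different mouse, and a p-value here therefore speaks of library-to-library spread at most.

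Leukocytes carry a shared set of surface, adhesion and signalling proteins, and lineages are told apart by antigen receptor complexes in lymphocytes and by Fc, integrin and oxidase components in myeloid cells. Kupffer cells are the resident macrophages of the liver sinusoids and clear particles and microbes from portal blood. Gene starts rich in CpGs are commonly unmethylated whether or not the gene is used, while CpG-poor starts of lineage genes are often methylated outside their lineage. Liver DNA comes mostly from hepatocytes. In such bulk DNA, another level within cells and another share of a cell type cannot be told apart.

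RefSeq listed starts for 23 of the 37 genes, with 30 promoters of 300 bases (250 before the start and 50 after). They held a median of 5.5 CpGs, against 7 over 32851 promoters. A CCGG or TCGA site, the letters cut by MspI and TaqI and each its own reverse complement, stood in 13 of the 30 (43.3%), against 60.5% of all promoters. An analysed CpG lay in 7 of the 30 (23.3%), against 42.0% of all. Most of the listed starts were therefore not read at the depth used here, and for the other members no start was listed. The upstream 250 bases of 4 starts that were read are shown because they differ in level, from almost unmethylated (Ikzf1, Runx3) through low (Coro1a) to intermediate (Vav1). The starts of Zap70 and Cd48 had analysed CpGs only after the start, at higher levels, and are not shown. They are given 5′ to 3′ on the gene's strand (RefSeq, GRCm38.p6, the same coordinates as mm10), and capitals mark the CpGs that were analysed.
Coro1a, chr7:126704817-126705066, minus strand: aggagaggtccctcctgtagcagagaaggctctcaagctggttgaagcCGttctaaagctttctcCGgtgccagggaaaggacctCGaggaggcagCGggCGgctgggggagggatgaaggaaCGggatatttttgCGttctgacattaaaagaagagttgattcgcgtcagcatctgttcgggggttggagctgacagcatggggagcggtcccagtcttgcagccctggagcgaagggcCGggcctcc
Ikzf1, chr11:11685675-11685924, plus strand: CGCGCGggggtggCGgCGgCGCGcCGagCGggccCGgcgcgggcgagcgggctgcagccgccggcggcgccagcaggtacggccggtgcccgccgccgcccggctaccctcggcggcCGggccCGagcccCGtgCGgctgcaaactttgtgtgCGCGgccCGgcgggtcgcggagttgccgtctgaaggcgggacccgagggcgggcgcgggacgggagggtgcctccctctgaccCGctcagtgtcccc
Runx3, downstream start, chr4:135152295-135152544, plus strand: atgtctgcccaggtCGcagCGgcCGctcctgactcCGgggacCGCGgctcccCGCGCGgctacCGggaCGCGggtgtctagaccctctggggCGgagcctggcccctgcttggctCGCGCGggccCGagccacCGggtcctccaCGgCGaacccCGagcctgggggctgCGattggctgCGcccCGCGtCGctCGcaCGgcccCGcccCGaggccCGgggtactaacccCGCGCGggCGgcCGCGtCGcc
Vav1, chr17:57278850-57279099, plus strand: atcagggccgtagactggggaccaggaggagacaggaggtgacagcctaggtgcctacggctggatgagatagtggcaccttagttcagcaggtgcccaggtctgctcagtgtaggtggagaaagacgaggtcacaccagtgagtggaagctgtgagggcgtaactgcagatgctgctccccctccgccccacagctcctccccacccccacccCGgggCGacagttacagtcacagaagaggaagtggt

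Coro1a encodes coronin 1A, an actin-binding protein of leukocytes. At its 8 analysed upstream CpGs the mean level was 11.3% and 10.5% in the WT libraries (replicates 1 and 2, in this order throughout) and 7.36% and 6.18% in the KO libraries, from 145 to 197 reads per library. Both KO libraries were below both WT libraries. At a second Coro1a start, with 7 analysed upstream CpGs, the levels were 12.03% and 5.33% in WT and 8.41% and 7.04% in KO, and the genotypes overlapped. The Ikzf1 start, of the gene for Ikaros, a zinc finger regulator of lymphocyte development, held 44 CpGs of which 18 were analysed. They averaged 0.732% and 1.65% in WT and 0.916% and 1.03% in KO. The Runx3 start, of a Runt-domain factor that acts in CD8 T cells, had all 38 CpGs analysed at 1.39% and 1.752% in WT and 1.27% and 1.58% in KO. At both starts the genotypes overlapped. Vav1, a guanine nucleotide exchange factor in antigen receptor signalling, had only 2 analysed CpGs upstream, read 38 to 44 times per library in all, at 28.9% and 37.5% in WT and 33.3% and 22.7% in KO. These levels overlapped too.

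**Figure D1:**
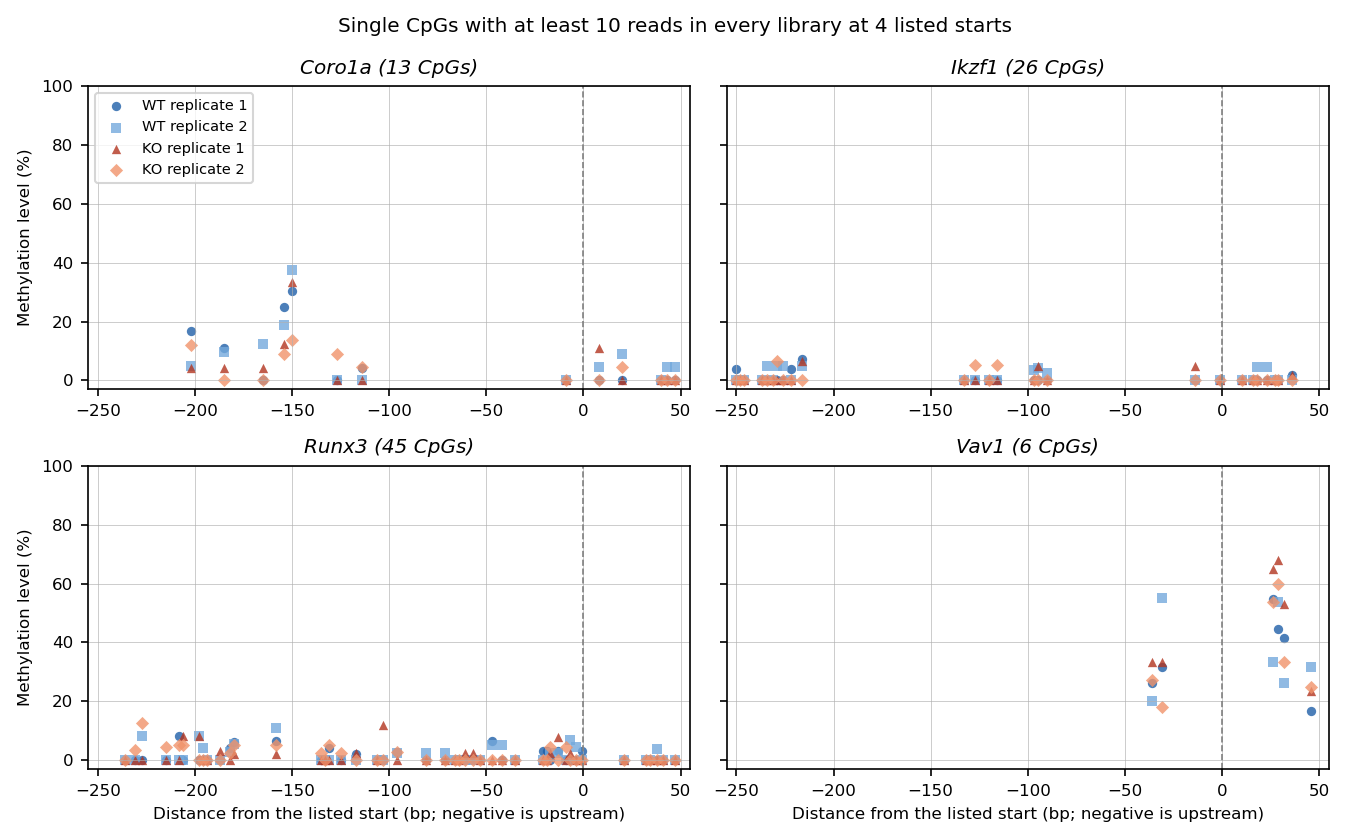
Methylation level (%) of single CpGs against distance from the listed start (bp) at the 4 starts whose upstream sequences are shown, with 1 point for each library. Ikzf1 and Runx3 stay near 0% in all 4 libraries, Coro1a holds low levels with a mean of up to 28.7% at single CpGs, and Vav1 lies at intermediate levels with the genotypes mixed.

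Over whole regions the members spread from 8.27% to 91.0% in WT, with a median of 70.9% in WT and 69.8% in KO, against 44.5% and 44.9% over 29025 gene regions. Of their CpGs, 791 (42.2%) had a mean level below 20%, 530 (28.3%) lay from 20% to 80% and 554 (29.5%) above 80%. Over all analysed CpGs these shares were 45.0%, 18.6% and 36.4%, so CpGs of intermediate level made up a larger share among the members. The lowest regions were those of Tyrobp, Coro1a and Cd79a. Tyrobp, the adaptor DAP12 of myeloid and NK cell receptors, stood at 8.15% and 8.39% in WT and 7.93% and 7.33% in KO. Cd79a, the signalling chain of the B cell receptor, stood at 10.7% and 11.9% in WT and 10.1% and 11.4% in KO.

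The low levels of those regions lay largely outside the member genes. Tyrobp and Cd79a had no analysed CpG inside the gene body, and 38 low CpGs of the Tyrobp region stood within 1 kb of the start or end used for Nfkbid, and 51 of the Cd79a region within 1 kb of that of Arhgef1. In the Coro1a region, 36 low CpGs lay at Slx1b and 34 at Bola2, against 32 at Coro1a's own starts. The Cd3g region, at 14.1% and 13.5% in WT and 13.4% and 14.4% in KO, held 32 low CpGs at Ube4a. Over all members, 229 low CpGs stood within 1 kb of the member's own start or end alone, 86 at an end shared with another gene (Ikzf1 with Gm11999), 213 at another gene alone and 263 at none of these. Low CpGs of the last kind were most numerous in Runx3 (103), Vav1 (44), Lck (34) and Zap70 (27).

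The highest regions were Cd5l, Cd8b1 and Lyz2. Cd5l, a secreted scavenger receptor protein of macrophages, had 3 CpGs at 91.3% and 88.7% in WT and 89.6% and 89.4% in KO. Lyz2, the lysozyme gene of myeloid cells, had 9 CpGs, none inside its body, at 89.3% and 86.5% in WT and 87.2% and 87.3% in KO. In both genes the KO libraries lay between the WT libraries.

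**Figure D2:**
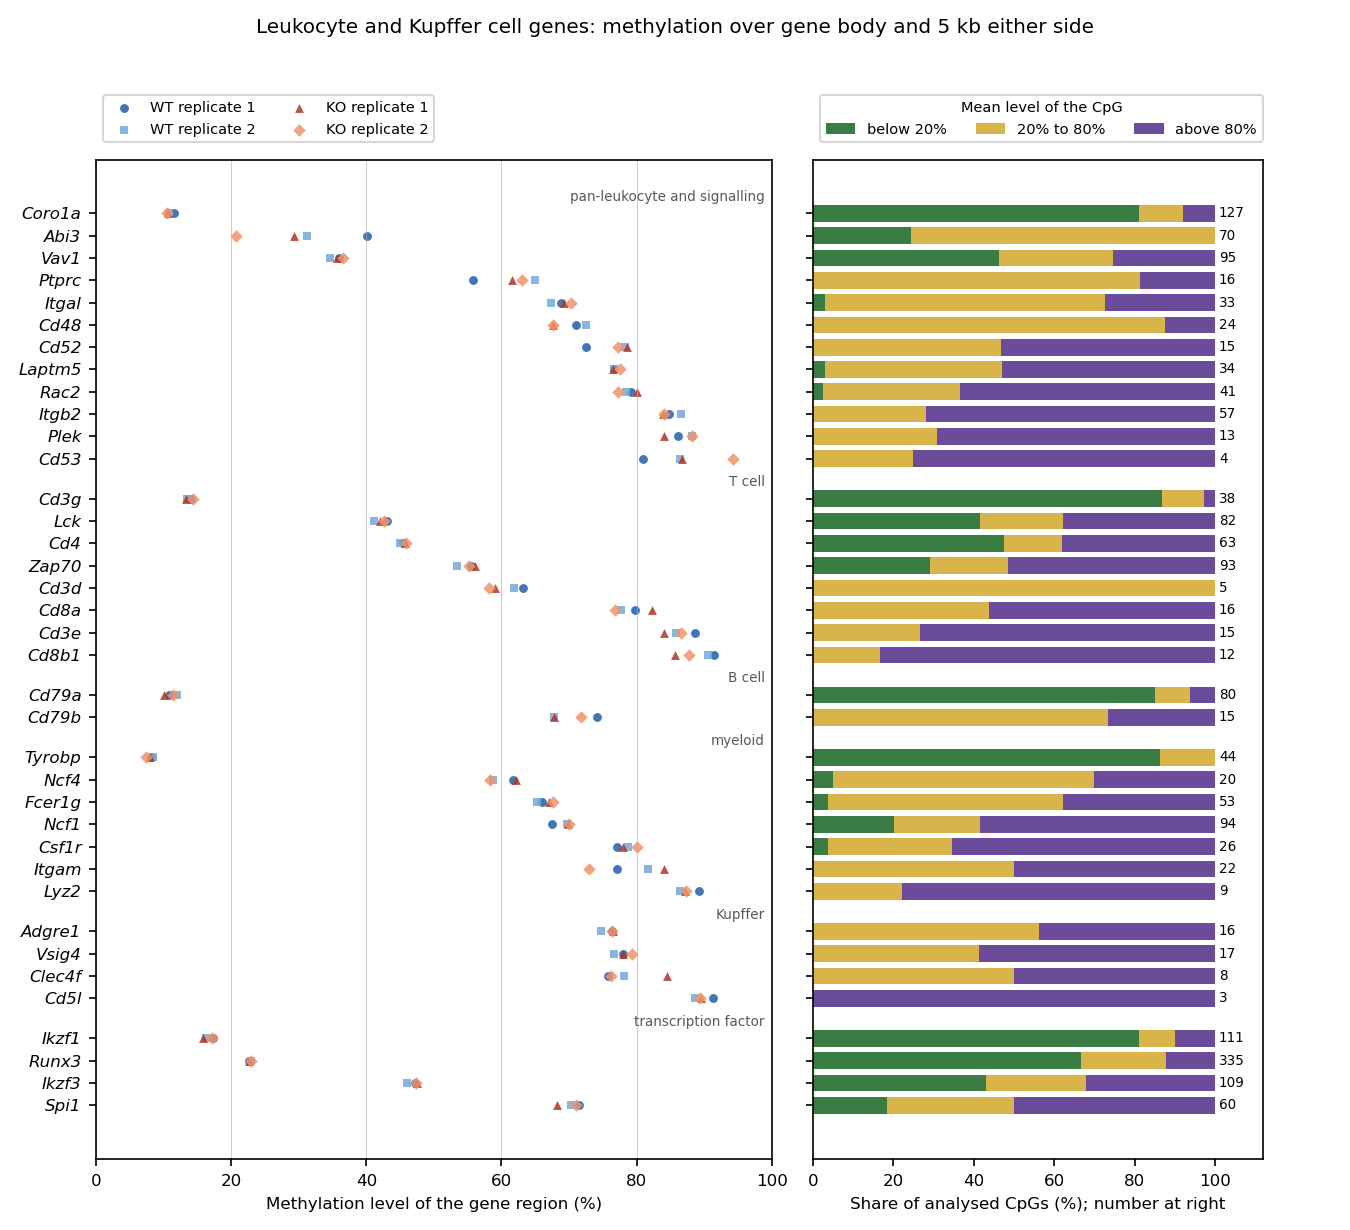
Left, methylation level (%) of each gene region in each of the 4 libraries, with genes grouped by role and ordered by level. Right, the share (%) of each region's CpGs below 20%, from 20% to 80% and above 80%, with the number of CpGs. Levels run from under 10% (Tyrobp) to about 90% (Cd5l, Cd8b1), the 4 libraries mostly lie within a few points of each other, and Abi3 stands out by its spread.

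No member region differed between the genotypes by the call used here, an adjusted p under 0.05 with a difference of at least 10 percentage points, in a moderated quasi-binomial model fitted over all gene regions. The share of all 29022 tested regions that was called was 0%. At an unadjusted p under 0.05 the model gave 1 member region (Abi3), against 2.64% of all regions, and it was lower in KO, as were 0.941% of all regions at that p. A limma fit to log2 methylated-to-unmethylated ratios gave 3 (Cd48, Cd3d and Cd8b1), against 7.3% of all. The other 36 member regions had an unadjusted p of 0.132 or more in the quasi-binomial model. In KO, 19 regions were higher and 18 lower (48.6% lower, against 42.3% of all regions), and the median difference was 0.00534 points, against 0.158 over all regions. Both KO libraries lay below both WT libraries in 7 members (14.2% of all regions did) and above them in 8 (24% of all regions did). No library was lowest throughout: WT replicates 1 and 2 were lowest in 6 and 11 members and KO replicates 1 and 2 in 12 and 8.

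Among the 12 pan-leukocyte and signalling genes, Abi3 had the lowest p. Abi3 encodes an Abl-interactor family protein linked to actin regulation and expressed in microglia and other macrophages. Its region of 70 CpGs stood at 40.1% and 31.1% in WT and 29.3% and 20.7% in KO, from 1682 to 2151 reads. Both KO libraries were below both WT libraries, but KO replicate 1 was closer to WT replicate 2 than the replicates of either genotype were to each other. The means were 35.6% ± 6.31 in WT and 25.0% ± 6.07 in KO (SD, n = 2 each), a difference of -10.6 points (unadjusted p = 0.0266, moderated quasi-binomial model). With limma the unadjusted p of the region was 0.112. With 1 library left out the difference ran from -6.12 points (without WT replicate 1) to -15.04 (without WT replicate 2).

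Itgb2, the β2 integrin chain CD18, stood at 84.8% and 86.6% in WT and 83.9% and 84.1% in KO over 57 CpGs. Cd48, a ligand of the lymphocyte receptor CD244, stood at 71.0% and 72.6% in WT and at 67.7% in both KO libraries over 24 CpGs. In both genes the KO libraries were below the WT libraries, by 1.67 points in Itgb2 and by 4.09 points in Cd48. The Itgb2 difference ran from -0.758 points without WT replicate 2 to -2.58 without WT replicate 1. Cd53, a tetraspanin, stood at 80.9% and 86.4% in WT and 86.8% and 94.3% in KO, on 4 CpGs with 53 to 76 reads per library. Its difference of 6.89 points was 3.12 without KO replicate 2 and 10.7 without KO replicate 1. Ptprc, the pan-leukocyte phosphatase CD45, had levels of 55.8% and 65.0% in WT and 61.6% and 63.1% in KO, and its KO libraries lay between the WT libraries. The other 7 of this group, Coro1a, Laptm5, Rac2, Vav1, Plek, Cd52 and Itgal, had an unadjusted p from 0.293 to 0.904 in the quasi-binomial model.

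Cd8b1 had the lowest p of the 8 T cell genes, 0.132 in the quasi-binomial model. Cd8b1, the β chain of the CD8 co-receptor, stood at 91.4% and 90.6% in WT and 85.7% and 87.8% in KO over 12 CpGs. Both KO libraries were lower, by 4.24 points in the mean. Cd8a, the partner chain, did not show the same order, at 79.8% and 77.8% in WT and 82.2% and 76.9% in KO. Zap70, a kinase of T cell receptor signalling, stood at 55.4% and 53.4% in WT and 56.1% and 55.3% in KO. Cd3e, a CD3 chain of the T cell receptor, stood at 88.6% and 85.8% in WT and 84.1% and 86.6% in KO. Both overlapped. The kinase gene Lck, the co-receptor gene Cd4 and the CD3 chain genes Cd3d and Cd3g had an unadjusted p from 0.515 to 0.948 in the quasi-binomial model. Cd3d stood at 63.2% and 61.8% in WT and 59.0% and 58.2% in KO, on 5 CpGs.

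Both signalling chains of the B cell receptor overlapped between the genotypes. Cd79b, on 15 CpGs, stood at 74.1% and 67.7% in WT and 67.7% and 71.8% in KO, and its values and those of Cd79a gave an unadjusted p of 0.664 and 0.435 in the quasi-binomial model.

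Among the 7 myeloid genes, Fcer1g, the common γ chain of Fc receptors, had the lowest p, 0.222 in the quasi-binomial model. It stood at 66.0% and 65.3% in WT and 67.1% and 67.7% in KO over 53 CpGs, a difference of 1.72 points with both KO libraries higher. Ncf1, the p47 subunit of the phagocyte NADPH oxidase, stood at 67.4% and 69.7% in WT and 69.9% and 69.95% in KO. Its oxidase partner Ncf4, the p40 subunit, was at 61.7% and 58.7% in WT and 62.2% and 58.3% in KO, a difference of 0.00534 points. The integrin chain Itgam (CD11b) varied most within a genotype among the myeloid genes, at 77.2% and 81.7% in WT and 84.1% and 72.9% in KO. Csf1r, the receptor of macrophage colony-stimulating factor, stood at 77.1% and 78.8% in WT and 78.0% and 80.01% in KO.

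The regions of the 4 Kupffer cell genes stood at 75.6% to 90.0% in WT, with 3 to 17 CpGs each. Only that of Cd5l, on 3 CpGs, had a WT mean above 80%. Clec4f, a C-type lectin of Kupffer cells, stood at 75.7% and 78.1% in WT and 84.6% and 76.2% in KO, and a single KO library was above the others. Vsig4, the complement receptor CRIg, stood at 78.0% and 76.7% in WT and 78.0% and 79.3% in KO. Adgre1, which encodes F4/80, stood at 76.4% and 74.7% in WT and 76.5% and 76.4% in KO. The 4 genes had an unadjusted p from 0.373 to 0.884 in the quasi-binomial model.

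The regions of the 4 transcription factors differed by -1.32 to 0.832 points. Spi1 (PU.1), needed for myeloid and B cell development, stood at 71.5% and 70.3% in WT and 68.2% and 71.0% in KO. Ikzf3 (Aiolos) stood at 47.2% and 46.1% in WT and 47.6% and 47.4% in KO. Ikzf1 stood at 17.3% and 16.2% in WT and 15.8% and 17.1% in KO. Runx3 was the member with the most CpGs, 335, and 8427 to 9745 reads summed over them per library. It stood at 22.6% and 23.0% in WT and at 22.6% and 22.9% in KO, a difference of -0.0282 points. The 4 had an unadjusted p from 0.353 to 0.955 in the quasi-binomial model.

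Windows of 1 kb on either side of a gene's listed start, or of its annotated end richer in CpGs where no start was listed, were measured for 21 members. None of them was called, as was 0% of all 19729 windows tested, and 1 had an unadjusted p under 0.05 (Abi3), against 5.4% of all. It was lower in KO, as were 2.84% of all windows at that p. With limma 2 had such a p, against 5.93% of all, and they were Cd4 (0.00656) and Cd8b1 (0.0498). The unadjusted limma p of the Abi3 window was 0.0590. Both KO libraries lay below both WT libraries in 3 members (17.2% of all windows did) and above them in 2 (17.8% of all windows did). The members' windows had a median level of 72.2% in WT, against 2.20% over all windows. The 2 sets are unlike, as a start was listed for 23 of the 37 members and for 27025 of 34614 genes. Windows at an annotated end, which may not be the start, were thus more frequent among the members. The lowest were Cd4 (0.279% and 0.219% in WT, 0.985% and 0.838% in KO, 17 CpGs), Ikzf1 (0.961% and 0.956% in WT, 0.768% and 1.10% in KO, 90 CpGs) and Ikzf3 (1.54% and 0.557% in WT, 1.58% and 1.37% in KO, 46 CpGs). The highest were Cd79a, at 93.8% and 94.7% in WT and 87.3% and 94.8% in KO on 5 CpGs, and Cd8b1, at 92.5% and 93.7% in WT and 87.8% and 89.7% in KO on 6. Cd52, the gene of a small surface glycoprotein of lymphocytes, followed at 88.7% and 77.3% in WT and 87.1% and 85.7% in KO on 4. Of these genes, Ikzf1 and Cd79a had listed starts. The windows of Cd4, Ikzf3, Cd8b1 and Cd52 lay at an annotated end that may not be the start.

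After Abi3, the window with the next lowest p was that of Coro1a. Its 37 CpGs stood at 9.73% and 8.40% in WT and 7.16% and 6.79% in KO, so that both KO libraries were lower, by 2.09 points (adjusted p = 0.915, quasi-binomial model). Spi1, at 39.4% and 33.9% in WT and 40.6% and 38.5% in KO, and Vav1, at 44.4% and 37.5% in WT and 46.7% and 44.4% in KO, were the windows closest to Abi3 in level. The Spi1 window lay at an annotated end that may not be the start. The Spi1 libraries overlapped, and those of Vav1 differed by 4.61 points, with both KO libraries higher.

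The Abi3 window, around the lower annotated end of the gene, stood at 47.6% and 35.02% in WT and 30.03% and 19.3% in KO over 39 CpGs. Both KO libraries were below both WT libraries, the lowest being KO replicate 2 and the highest WT replicate 1. The means were 41.3% ± 8.90 and 24.7% ± 7.56 (SD, n = 2 each), a difference of -16.6 points (unadjusted p = 0.00122, adjusted p = 0.571, moderated quasi-binomial fit). Where raw reads were summed, without scaling each CpG to the lowest depth of the 4 libraries, the difference was -17.2 points, the adjusted p was 0.0424 and the window was called. With 1 library left out the difference ran from -10.3 points (without WT replicate 1) to -22.9 (without WT replicate 2).

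In tiles of 1 kb, which separate the parts of a region, none of the 204 member tiles was called, against 0.0648% of 163610 tested tiles. An unadjusted p under 0.05 was found in 12 member tiles, against 5.71% of all tiles, and in 6 with limma, against 5.57%. Of the 12, 8 were lower in KO, as were 2.3% of all tiles at that p, and 4 were higher, as were 3.41%. Both KO libraries lay below both WT libraries in 38 member tiles (15% of all tiles did) and above them in 34 (19.8% of all tiles did). The 2 tiles of lowest p were neighbours in Abi3. The first, chr11:95830001-95831000, had 35 CpGs at 47.0% and 35.8% in WT and 31.3% and 19.8% in KO. Its difference of -15.9 points had an adjusted p of 0.0575 in the quasi-binomial fit, just above the threshold of 0.05. It passed the threshold with a coverage minimum of 5 reads (adjusted p = 0.0341), with raw reads summed (0.0261) and without the CpG that differed most (0.0408). Over its other alternatives the adjusted p ran from 0.125 to 1. With limma its unadjusted p was 0.0531. With 1 library left out its difference ran from -10.1 points (without KO replicate 2) to -21.7 (without KO replicate 1). The second, chr11:95831001-95832000, had 14 CpGs at 39.4% and 25.0% in WT and 22.4% and 15.7% in KO. This tile had an adjusted p of 0.234 in the quasi-binomial fit and an unadjusted p of 0.0696 with limma. Its difference ran from -5.93 points (without WT replicate 1) to -20.4 (without WT replicate 2).

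Runx3 held tiles in opposite directions. The 5 CpGs of chr4:135166001-135167000 stood at 24.1% and 28.9% in WT and 11.8% and 13.7% in KO (adjusted p = 0.600). The 3 CpGs of chr4:135162001-135163000 stood at 52.7% and 51.0% in WT and 70.5% and 72.1% in KO (adjusted p = 0.759). In both tiles the spread between replicates was small beside the difference, on few CpGs. The 95 CpGs of the tile at the downstream Runx3 start stood at 2.12% and 1.99% in WT and 1.72% and 1.52% in KO.

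The lowest p among the myeloid tiles was in Ncf1, whose tile chr5:134222001-134223000 had 21 CpGs at 22.5% and 26.7% in WT and 30.4% and 33.9% in KO, with both KO libraries higher (adjusted p = 0.664). An Itgb2 tile, chr10:77548001-77549000, stood at 86.2% and 88.7% in WT and 73.8% and 83.8% in KO (adjusted p = 0.732). A Ptprc tile, chr1:138120001-138121000, stood at 48.2% and 60.9% in WT and 74.7% and 65.3% in KO on 3 CpGs (adjusted p = 0.775). Both KO libraries were lower in the Itgb2 tile and higher in the Ptprc tile. A Laptm5 tile, in the gene of a lysosomal transmembrane protein of leukocytes, stood at 87.0% and 89.0% in WT and 77.1% and 75.3% in KO (adjusted p = 0.806), with both KO libraries lower. A Cd48 tile stood at 67.1% and 68.7% in WT and 60.8% and 54.6% in KO (adjusted p = 0.809). An Ikzf1 tile inside the gene differed by -17.8 points, but its KO libraries stood at 55.4% and 82.2%, against 86.8% and 86.4% in WT.

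**Figure D3:**
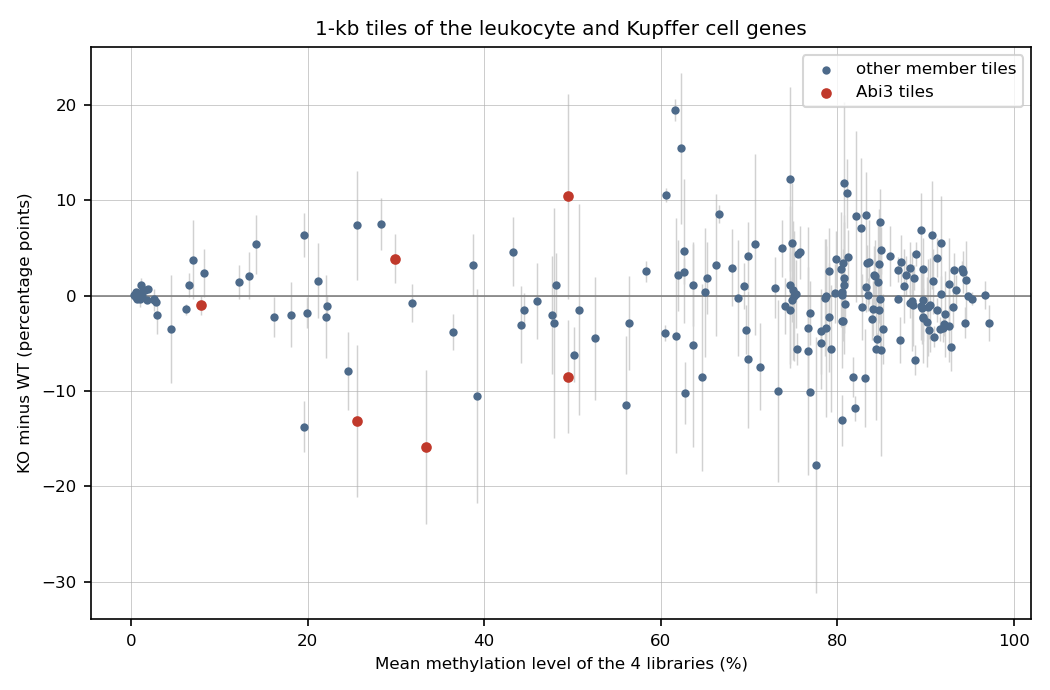
Difference in methylation (KO minus WT, percentage points) of the 204 member tiles against their mean level (%), with bars of 1 SD between replicates pooled over the genotypes. The tiles scatter on both sides of 0, and the 2 lowest Abi3 points, at -15.9 and -13.2 points, are the pair of neighbouring tiles of lowest p.

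At single CpGs, tested on 1594 of the 1875 (the other 281 had no or only methylated reads), no member CpG was called, against 0.00941% of 1263975 CpGs in the genome. An unadjusted p under 0.05 was found at 81 member CpGs, against 4.02% of all CpGs, and at 93 with limma, against 5.21%. Of the 81, 49 were lower in KO, as were 1.76% of all CpGs at that p, and 32 were higher, as were 2.26%. Of the 49, 18 lay in Abi3. The CpG of lowest p lay in Spi1 at chr2:91096655, inside the gene body, and stood at 84.8% and 79.2% in WT and 50.7% and 58.8% in KO, from 46 to 67 reads. Its difference of -27.2 points had an adjusted p of 0.591. It was chosen for its p among the members' CpGs, and the Spi1 region as a whole overlapped between the genotypes. A second Spi1 CpG, at chr2:91118278 beyond the gene's end and near Mybpc3, was fully methylated in WT and stood at 77.3% and 88.5% in KO, both KO libraries being lower. A Zap70 CpG, at chr1:36771935, was fully methylated in WT and stood at 70% and 77.8% in KO, on 10 to 18 reads. The other 7 of the 10 lowest p-values were all CpGs of Abi3.

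Most of the Abi3 difference lay in 1 stretch, which falls in the 2 neighbouring tiles of lowest p. Dividing the region at this stretch was not in the written design and is a description only. Abi3 spans chr11:95830072-95842476 and its strand is not listed in the annotation used here. Its lower end overlaps the upper part of Phospho1 (chr11:95824500-95832140, plus strand), a phosphatase of phosphoethanolamine and phosphocholine known from bone mineralisation, so the stretch cannot be assigned to either gene. In the stretch shared by both bodies, 49 CpGs from 95830333 to 95831634 stood at 44.4% and 32.1% in WT and 28.2% and 18.4% in KO. The means were 38.2% ± 8.72 and 23.3% ± 6.98 (SD, n = 2 each). The KO mean was the lower one at 43 of the 49 CpGs, and both KO libraries were below both WT libraries at 29. WT replicate 1 was the highest library at 37 and KO replicate 2 the lowest at 37. Neighbouring CpGs share reads and are not independent, so these are not counts of separate observations. They were not set against the share over all CpGs and only describe the stretch. The remaining 21 CpGs of the Abi3 region stood at 29.98% and 29.0% in WT and 31.8% and 26.2% in KO, a difference of -0.444 points with overlapping libraries. Of these, the 10 in the Abi3 body stood at 46.9% and 44.7% in WT and 55.2% and 46.7% in KO. Their difference was 5.16 points, the other way from the stretch, and their libraries overlapped.

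Within the stretch, CpGs were split into runs wherever neighbours stood more than 50 bp apart, a division made after the values had been seen and given as a description. The run with the largest difference, 9 CpGs over 60 bp from 95830639 to 95830697, stood at 58.1% and 42.5% in WT and 28.9% and 9.96% in KO. Both KO libraries were below both WT libraries at all 9 CpGs, which are neighbours within 60 bp. That count too was not set against the share over all CpGs. The run after it, 11 CpGs, stood at 39.9% and 25.1% in WT and 25.2% and 18.04% in KO, where WT replicate 2 and KO replicate 1 were level. A run of 9 CpGs about 1 kb from the Abi3 end stood at 42.7% and 21.9% in WT and 17.95% and 13.0% in KO, so that WT replicate 1 was set apart from the other 3 libraries.

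**Figure D4:**
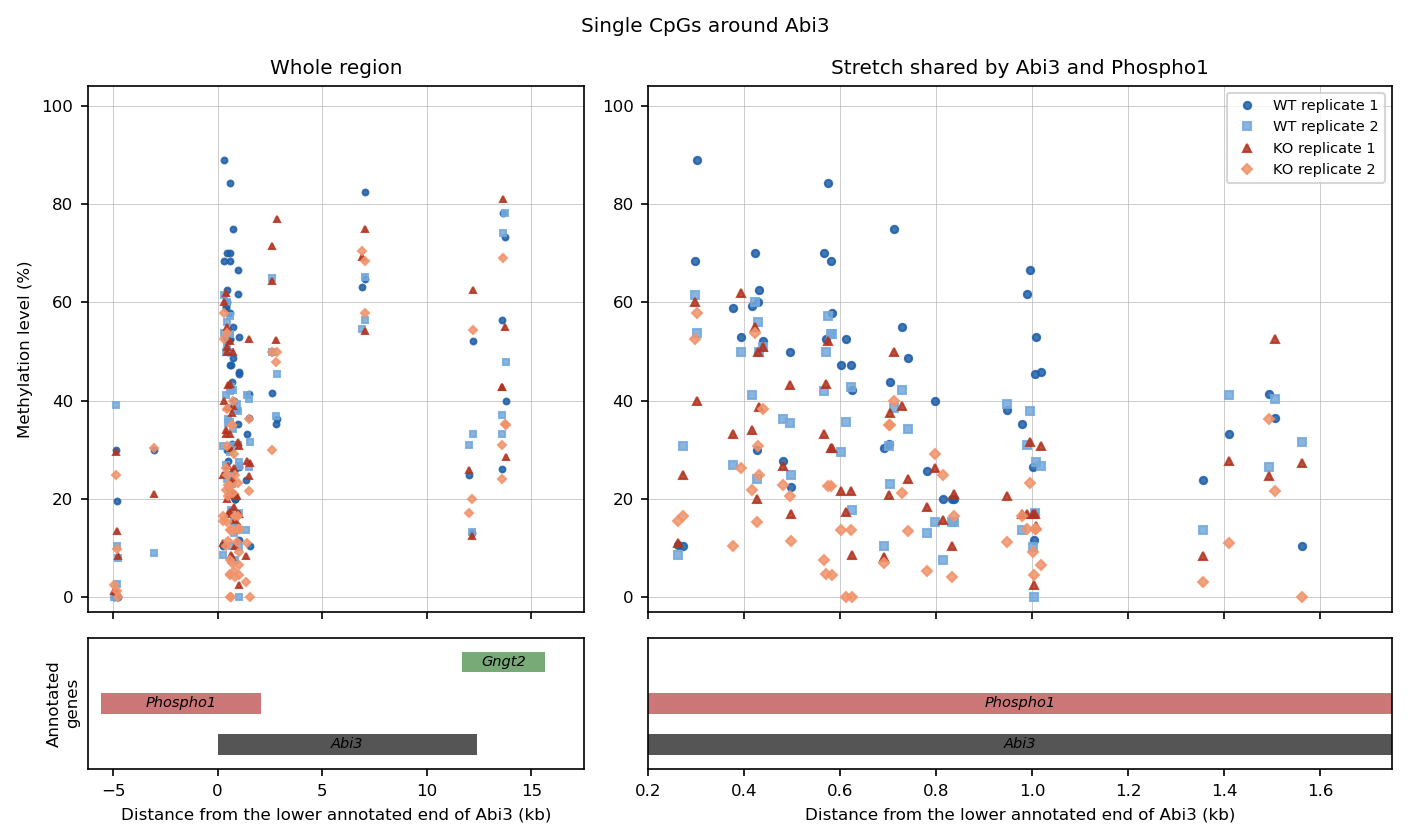
Methylation level (%) of single CpGs against distance from the lower annotated end of Abi3 (kb), for the whole region (left) and the stretch shared by Abi3 and Phospho1 (right), with 1 point for each library and the annotated gene bodies as bars. In the shared stretch WT replicate 1 is mostly highest and KO replicate 2 mostly lowest, with WT replicate 2 and KO replicate 1 between them.

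The start of Phospho1, in a window of 57 CpGs, was almost unmethylated at 2.31% and 2.47% in WT and 2.73% and 1.88% in KO, and the Phospho1 region as a whole, which holds the shared stretch, stood at 20.4% and 15.6% in WT and 14.8% and 10.2% in KO (unadjusted p = 0.0292, quasi-binomial model). Without the Abi3 region the median difference of the other 36 members was 0.0363 points. Member CpGs of intermediate level averaged 59.5% and 57.5% in WT and 58.0% and 57.3% in KO, and without Abi3 60.5% and 59.3% in WT and 60.1% and 60.5% in KO, both overlapping. Over all CpGs of intermediate level in the genome, both KO libraries were above both WT libraries, by 1.30 points in the mean.

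A wider list of 68 leukocyte genes that are not members was measured for 64. In KO 41 of the 64 regions were higher and 23 lower (35.9% lower, against 42.3% of all regions). The median difference was 0.569 points, against 0.158 over all regions, and none was called. An unadjusted p under 0.05 in the quasi-binomial model was found in 5, against 2.64% of all regions. Dock2, Cybb, Mrc1 and Ms4a1 were higher in KO (1.7% of all regions were, at that p) and Cd37 was lower (0.941%). Cybb, the gp91 subunit of the phagocyte oxidase served by Ncf1 and Ncf4, stood at 72.3% and 73.6% in WT and 79.8% and 86.2% in KO. Dock2, an exchange factor for Rac proteins in leukocytes, stood at 73.1% and 73.0% in WT and 74.8% and 76.3% in KO. Mrc1, the mannose receptor of macrophages and sinusoidal endothelium, stood at 81.5% and 79.4% in WT and 85.9% and 85.2% in KO. Cd37, a tetraspanin of B cells, stood at 51.8% and 50.8% in WT and 47.7% and 45.9% in KO. With limma 5 regions of this list had an unadjusted p under 0.05, against 7.3% of all.

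Markers of the other liver cells were read the same way. Of 10 hepatocyte marker regions, 8 were higher in KO and 2 lower (20% lower, against 42.3% of all regions). The median difference was 2.51 points, against 0.158 over all regions. Of the 10 regions, 2 had an unadjusted p under 0.05 in the quasi-binomial model (Tat and Hnf4a), against 2.64% of all regions. Both were higher in KO, as were 1.7% of all regions at that p, and none was called. The tyrosine aminotransferase gene Tat stood at 37.1% and 39.8% in WT and 57.0% and 47.5% in KO (unadjusted p = 0.00392, quasi-binomial model). The median difference was -0.0476 points over 7 cholangiocyte regions, 0.0182 over 8 endothelial regions and 0.247 over 8 stellate cell regions, with none at an unadjusted p under 0.05 in the quasi-binomial model. With limma 3 hepatocyte regions (Tat, Hnf4a and Serpina1a) and 2 stellate cell regions (Col1a1 and Col3a1) had such a p, all higher in KO, and 0 of the cholangiocyte and endothelial regions, against 7.3% of all. The part of cell composition in the Abi3 values was not tested.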

How the data were processed

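RRBS libraries from TaqI- and MspI-cut liver DNA gave, per library, a track of levels and a track of depth, on mm10 per the file headers. BWA 0.7.12 and MACS appear, with no role stated, in the submitters' processing notes; nothing further is given in the sources used here. The authors' deposited values are a methylation fraction and a read count (coverage) per cytosine, negative on the reverse strand. Their product was a whole number throughout (100%, tolerance 1e-06) and was taken as the methylated reads. Read depth summed over cytosines was 50413170 to 60535892 per library, a read being counted at each cytosine it covers, with medians of 21 to 25 reads at analysed CpGs. For 5 methylated of 10 reads, a 95% Clopper-Pearson interval (exact, counting error only) spans 18.7% to 81.3%.

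Regions, windows and tiles needed 3 CpGs, with reads at each CpG scaled to the lowest depth of the 4 libraries. Gene ends, and RefSeq starts for 27025 genes, came from GRCm38.p6; for the other genes, 14 members among them, the annotated end with more listed CpGs was used, which was the listed start in 71.8% of genes that have one. Features were fitted with a moderated quasi-binomial model: the Pearson dispersion was shrunk with limma 3.58.1, never below 1, and tested by a quasi-likelihood F test (two-sided) with Benjamini-Hochberg adjustment over all features. Software was R 4.3.3, pandas 2.3.3 and matplotlib 3.10.9.

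In a test on simulated reads, of features changed by 10, 20 and 30 points it recovered 25.4%, 92.9% and 94.9% of regions, 8.57%, 58.8% and 96.8% of windows and 1.61%, 43.3% and 76.1% of tiles. In the same simulated data, 95 of 234 region calls lay outside the regions chosen to be changed. Gene regions can overlap, so such a region can hold CpGs of a changed one, and how many did was not counted. Tiles do not overlap, and 3 of 87 tile calls lay outside the changed tiles. For single CpGs changed by 30, 50 and 70 points, a prior for the spread from all CpGs recovered 0%, 0% and 1.45%, so the prior came from CpGs whose binomial variance reached 5 reads in every library, which recovered 3.28%, 35.7% and 89.9%. That departs from the written design and was settled after both counts of calls had been seen; no member CpG was called under either.

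The members and lists were chosen with earlier results of these data known. Named were called members, the 3 members of lowest region p in each role group, the lowest and highest levels, each described member's tile of lowest p and up to 4 further leukocyte genes; other members, tiles and CpGs were added after their values were seen. Alternatives covered coverage, the prior, a replicate block, limma, the size of difference, raw read sums, the span of a region, the number of CpGs and each library left out. Deviations of libraries with the same replicate number had a correlation of -0.0144 over 45296 tiles of intermediate level. Such a value over the genome cannot show whether these libraries were paired, and the labels state no pairing.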

Additional observations from a re-analysis of the deposited data

How the results depend on the processing

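No gene region was called under any of 13 alternatives, members included. Of all windows 8 were called with raw reads summed, 1 of them a member (Abi3), and 0 under the other alternatives. Of tiles, 106 were called as designed, 43 with a coverage minimum of 20 reads, 62 without the CpG that differed most, 53 at a difference of at least 20 points, 0 with limma and 0 to 2 with 1 library left out. A member tile, in Abi3, was called (1 of 204) with a coverage minimum of 5 reads, with raw reads summed and without the CpG that differed most, and none under the other 9. Of single CpGs 119 were called, 9 with the prior from all CpGs, 192 with limma and 0 to 0 with 1 library left out, none of them in a member. Under 10 alternatives the median member difference ran from -0.258 points (each CpG weighted equally) to 0.630 (coverage minimum of 5 reads), and its sign changed among them. The libraries' median member region level had an SD of 1.19 points between libraries. That is the spread of a level and does not measure the spread of the median difference. With the replicate number as a block, 0 regions, 0 windows, 0 tiles and 333 CpGs were called, none in a member; the numbers are not shown to pair the libraries. The Cd48 region, at -4.09 points, stood at 0.650 points over the gene body alone. In simulated reads at these depths, changes of 10 points in features of middle level were recovered in 25.4% of regions, 8.57% of windows and 1.61% of tiles. The call itself asks for an observed difference of 10 points, and depth was not varied.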

Other observations

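Ncf4 and Rac2, the members on chromosome 15, lie between the first (73474421) and the last (86723329) of 34 CpGs of that chromosome that were read at least 5 times in each library and stood at no more than 10% in WT and no less than 70% in KO. None of these CpGs lay in a member region. Rac2, a GTPase of leukocytes that activates the phagocyte oxidase, stood at 79.2% and 78.5% in WT and 80.1% and 77.2% in KO, with overlapping libraries.

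Among windows of the wider leukocyte list, that of Runx1, a regulator of blood stem cells, stood at 66.0% and 56.2% in WT and 75.6% and 70.6% in KO over 8 CpGs (unadjusted p = 0.0260, adjusted p = 0.898, moderated quasi-binomial model). The window of Ptprcap, which encodes a protein associated with CD45, stood at 89.6% and 83.7% in WT and 80.9% and 79.4% in KO over 10 CpGs (unadjusted p = 0.0497). Both genes had the KO libraries on one side of the WT libraries, in opposite directions, and neither window was called. They are the 2 of 40 measured windows of that list with an unadjusted p under 0.05 in the quasi-binomial model (5%), against 5.4% of all windows, and were named after their values had been seen.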
